A study of Mus musculus with 12 samples.

Results

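Glucocorticoid-responsive genes were examined in the white portion of the gastrocnemius, a calf muscle rich in fast fibres, of overnight-fasted mice. The 9 genes were Nr3c1, Fkbp5, Klf15, Cebpb, Cebpd, Tsc22d3, Ddit4, Mt1 and Mt2. A probe set, the group of short probes that reads 1 stretch of transcript, was taken when the platform annotation names 1 of these genes and no other. This gave 17 probe sets of 22626 tested, for 9 of 12393 named genes: 3 each for Nr3c1 and Tsc22d3, 2 each for Fkbp5, Cebpb, Cebpd and Mt1, and 1 each for Klf15, Ddit4 and Mt2. All 17 stayed in every fit that used all probe sets. Where a gene is given by a single value, the value is from its probe set with the highest mean.

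RNA was hybridised to 12 Affymetrix MOE430A arrays. Of these, 6 came from mice with a knock-out of the gamma3 subunit of the energy-sensing kinase AMPK, and 6 from wild type littermates. Both genotypes were male C57BL/6 mice of generation F7, 14 weeks old, kept in a 12-h light-dark cycle and fasted overnight, so no group was fed, and the labels name no hormone treatment. The labels name no cell-type-specific driver for the deletion, and the gene it targets was not analysed here. Per the array records, the arrays were washed in 3 runs. Run 1 held knockout replicates 1 and 2 and wild type replicates 1 and 4, run 2 held knockout 3 and 4 and wild type 2 and 3, and run 3 held knockout 5 and 6 and wild type 5 and 6. Run 3 was also the only run scanned on the second of 2 days, so wash run and scan day cannot be told apart for it. Array medians were 132.5 to 139.8 intensity units and arrays correlated at 0.991 to 0.997 with each other. All 8 fast fibre markers, such as Myh4 and Pvalb, were above the median level of all probe sets, and their mean log2 level spanned 13.54 to 13.62 in knockout and 13.51 to 13.60 in wild type. The 9 genes listed as slow fibre markers, Myh2 among them, varied much more from array to array. Their mean level ran from 8.25 to 9.89 in knockout and 8.29 to 9.88 in wild type. Of these 9, 8 were lower in knockout with a median log2 difference of -0.418, and none passed or had an unadjusted p below 0.05.

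In fasting, the adrenal cortex releases glucocorticoids, which bind the receptor encoded by Nr3c1. The receptor is held ready by heat shock chaperones, moves to the nucleus with its ligand, and there binds DNA or other factors and raises or lowers transcription. In muscle, glucocorticoids are known to promote the breakdown of protein and the use of amino acids, through target genes that include transcription factors (Klf15, Cebpb, Cebpd), brakes on growth signalling (Ddit4) and feedback on the receptor itself (Fkbp5). Metallothioneins are induced both by glucocorticoids and by zinc. In bulk tissue, fewer cells of a type and less RNA per cell cannot be told apart.

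Promoter sequence was read for the metallothionein pair and for Klf15, because Mt1 and Mt2 were among the most tightly coupled genes over the arrays and Klf15 with Nr3c1 had the highest correlation of the 36 pairs. RefSeq promoter windows (build GRCm38.p6, 250 bases before to 50 bases after a gene's start) were found for 7 of the 9 genes. Mt1 and Mt2 lie on the plus strand of chromosome 8, near each other. In their windows the capitals mark the core of the metal response element, TGCACNC or TGCGCNC on either strand, to which the zinc-sensing factor MTF1 binds. In the Klf15 window, on chromosome 6, the capitals mark the E-box CACGTG, a palindrome read by factors such as the clock proteins. The 250 bases before each start are shown.
Mt1, chr8:94178839-94179088, plus strand: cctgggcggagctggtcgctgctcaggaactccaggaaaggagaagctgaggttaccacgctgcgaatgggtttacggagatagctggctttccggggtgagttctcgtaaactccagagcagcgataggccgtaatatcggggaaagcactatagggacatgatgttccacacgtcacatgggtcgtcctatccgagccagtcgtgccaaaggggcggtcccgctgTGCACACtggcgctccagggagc
Mt2, chr8:94172368-94172617, plus strand: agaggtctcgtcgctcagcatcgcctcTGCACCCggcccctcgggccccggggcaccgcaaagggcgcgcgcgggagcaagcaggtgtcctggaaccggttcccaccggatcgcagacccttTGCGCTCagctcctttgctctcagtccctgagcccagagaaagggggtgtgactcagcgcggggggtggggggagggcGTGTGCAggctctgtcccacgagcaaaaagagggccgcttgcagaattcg
Klf15, chr6:90462326-90462575, plus strand: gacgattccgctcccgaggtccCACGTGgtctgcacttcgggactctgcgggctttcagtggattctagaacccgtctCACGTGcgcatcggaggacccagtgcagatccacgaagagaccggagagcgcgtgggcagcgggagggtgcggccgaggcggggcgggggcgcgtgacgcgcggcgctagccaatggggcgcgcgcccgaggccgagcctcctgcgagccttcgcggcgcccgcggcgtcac
The Mt2 window held 4 metal response element cores, 3 of them in the stretch shown and 1 after the start. Mt1 held 3, with 1 shown and 2 after the start. Of 32851 promoter windows of the same length, 1.97% held at least 3 such cores and 0.517% at least 4. Klf15 held 3 E-boxes, starting 228, 172 and 3 bases before the gene's start, and the last of these runs over the start and is not in capitals. A TGCGCNC match overlaps the second. At least 3 E-boxes were found in 0.0883% of all windows. Other motifs were searched in the same windows, so the shares given for metal response elements and E-boxes are descriptions. The letters TGACG, part of the cAMP response element, were found 3 times in the Cebpb window and 2 times in the Klf15 window. At least 3 such matches were in 1.03% of all windows, and at least 2 in 5.01%. The glucocorticoid response element, searched as AGAACA and TGTTCT with 3 free letters between them, was in none of the 9 windows of these 7 genes and in 0.00913% of all windows. This says only that these letters are not in these windows.

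No glucocorticoid-responsive gene passed the test between genotypes. Each of the 9 was on average slightly higher in knockout muscle, by 0.07 to 0.49 on the log2 scale, but the groups overlapped for every gene and the arrays of either genotype spread widely. In the limma fit, 0 of the 17 probe sets passed an adjusted p of 0.05, where 3 of all 22626 (0.0133%) did, and 0 of 17 had an unadjusted p below 0.05, where 6.04% of all did. Of the 17, 14 were higher in knockout, against 47.1% of all probe sets. Because the genes move together from array to array, these 14 directions are not 14 separate observations. The median difference was 0.123 over the 17 probe sets and -0.0047 over all. Differences are knockout minus wild type in log2 intensity, with limma's standard error.

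The receptor gene Nr3c1 (probe set 1421867_at) had log2 intensities with a lowest, median and highest value of 9.41, 9.75 and 9.83 in knockout, against 9.31, 9.52 and 9.82 in wild type. The difference was 0.12 ± 0.0927 (SE, n = 6 each, 95% interval -0.07 to 0.32, limma adjusted p = 0.912). Knockout replicate 1 and wild type replicate 1 were the lowest of their genotypes, and the ranges nearly coincided. The next brightest Nr3c1 probe set, 1460303_at, differed by 0.19 ± 0.11 and followed the first over the arrays (r = 0.89). The dimmest, 1421866_at, differed by -0.13 ± 0.149 and followed the first less closely (r = 0.52), so the Nr3c1 probe sets do not all point the same way. Averaged over its 3 probe sets, Nr3c1 differed by 0.06.

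Fkbp5 encodes a co-chaperone that lowers the receptor's affinity for its ligand and is itself induced by the receptor, a short feedback loop. Its log2 intensities (1416125_at) were 10.02, 10.52 and 10.86 (lowest, median, highest) in knockout, against 10.19, 10.28 and 10.91 in wild type. The difference was 0.09 ± 0.145 (95% interval -0.21 to 0.40, limma adjusted p = 0.965). Of the wild type arrays, 5 lay between 10.19 and 10.34 and replicate 5 stood alone at 10.91, while the knockout arrays were spread over the whole range. The other Fkbp5 probe set, 1448231_at, gave a difference of 0.10 ± 0.133 and had r = 0.84 with the first. The small Fkbp5 difference moved with single arrays: it was 0.01 without knockout replicate 5, 0.03 without knockout replicate 6, 0.18 without knockout replicate 3, 0.17 without knockout replicate 4, and 0.20 with wild type replicate 5 left out. With the fluidics module as a block it was 0.02, and without run 3 it was 0.05.

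Klf15 encodes a zinc finger transcription factor that turns on amino acid breakdown in fasted muscle. Its log2 intensities (1448181_at) were 8.98, 9.37 and 9.50 in knockout (lowest, median, highest), against 8.86, 9.12 and 9.47 in wild type. That is a difference of 0.16 ± 0.106 (95% interval -0.07 to 0.38, limma adjusted p = 0.900). Knockout replicate 1 lay well below the other 5 knockout arrays, and wild type replicates 4 and 5 lay among the highest knockout arrays. Without wild type replicate 1 the Klf15 difference was 0.10.

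Cebpb and Cebpd encode C/EBP beta and delta, leucine zipper factors that respond to glucocorticoids and to cytokines. Cebpb (1418901_at) stood at 10.30, 10.71 and 10.93 in knockout, against 9.95, 10.51 and 10.83 in wild type, a difference of 0.22 ± 0.129 (95% interval -0.05 to 0.49, limma adjusted p = 0.878). Wild type replicate 1 was the lowest of the 12 arrays and knockout replicate 5 the highest. Without wild type replicate 1 the Cebpb difference was 0.12. The dimmer Cebpb probe set 1427844_a_at gave 0.28 ± 0.152, with r = 0.95 to the first over the arrays.
Cebpd (1423233_at) ranged more widely, with 9.82, 10.50 and 11.02 in knockout, against 9.44, 10.32 and 10.88 in wild type. Its difference was 0.26 ± 0.23 (95% interval -0.22 to 0.75, limma adjusted p = 0.931). The lowest array of each genotype was from run 2 and the highest from run 3. The dim Cebpd probe set 1456605_at differed by -0.04 ± 0.0731 and had r = 0.39 with the first, so it did not follow the bright one. The Cebpd difference was 0.10 without wild type replicate 2, 0.16 without wild type replicate 1 or knockout replicate 6, 0.40 without knockout replicate 3, and 0.11 with both probe sets averaged.

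Tsc22d3 encodes GILZ, a leucine zipper protein through which glucocorticoids damp inflammatory signalling. Its brightest probe set (1420772_a_at) had 11.30, 11.58 and 11.77 in knockout, against 10.92, 11.46 and 11.62 in wild type. The difference was 0.19 ± 0.102 (95% interval -0.03 to 0.40, limma adjusted p = 0.866, the lowest of the 17). Wild type replicates 1 and 2 lay below every knockout array and the other 4 wild type arrays lay inside the knockout range. Without wild type replicate 2 the Tsc22d3 difference was 0.10, and with its probe sets averaged it was 0.11. The other 2 Tsc22d3 probe sets gave 0.08 ± 0.121 (1425281_a_at, r = 0.87 with the first) and 0.05 ± 0.0662 (1425557_x_at, r = 0.49, a set with probes that the array maker marks as prone to cross-hybridisation).

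Ddit4 encodes REDD1, which restrains the growth kinase complex mTORC1, and it varied most from array to array. Its log2 intensities (1428306_at) were 10.46, 11.44 and 11.80 in knockout, against 9.34, 11.02 and 11.95 in wild type. The difference of 0.49 ± 0.328 (95% interval -0.21 to 1.18, limma adjusted p = 0.900) had the largest error of the 17 probe sets. Of the knockout arrays, 5 lay between 11.38 and 11.80 and replicate 3 lay at 10.46, while the wild type arrays ran from replicate 2, the lowest of all 12, to replicate 6, the highest. Without wild type replicate 2 the Ddit4 difference was 0.18, and without run 3 it was 0.75.

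Mt1 and Mt2 encode metallothioneins, small cysteine-rich proteins that hold zinc and copper. Mt1 (1422557_s_at) had 9.40, 10.10 and 10.94 in knockout, against 9.33, 10.14 and 10.51 in wild type, a difference of 0.07 ± 0.235 (95% interval -0.43 to 0.56, limma adjusted p = 0.985). Mt2 (1428942_at) had 9.55, 10.19 and 11.18 in knockout, against 9.44, 10.12 and 10.75 in wild type, a difference of 0.22 ± 0.231 (95% interval -0.27 to 0.71, limma adjusted p = 0.951). For both genes knockout replicate 2 was the highest array and wild type replicate 2 the lowest. The sign of the small Mt1 difference depended on single arrays: it was -0.11 without knockout replicate 2, -0.03 without wild type replicate 1 and -0.07 without wild type replicate 2. The Mt2 difference was 0.04 without knockout replicate 2, 0.09 and 0.13 without wild type replicates 2 and 1, 0.35 without wild type replicate 5, 0.37 without knockout replicate 3, 0.45 without run 3 and 0.14 with array weights. The suffix of 1422557_s_at marks probes shared by transcripts of more than 1 gene, so Mt1 cannot be told apart here from a near-identical copy. The second Mt1 probe set, 1451612_at, was dim, at 6.46 to 6.70 log2 units on the 12 arrays where the median of all probe sets was 7.09, and did not follow the first (r = -0.08).

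**Figure D1:**
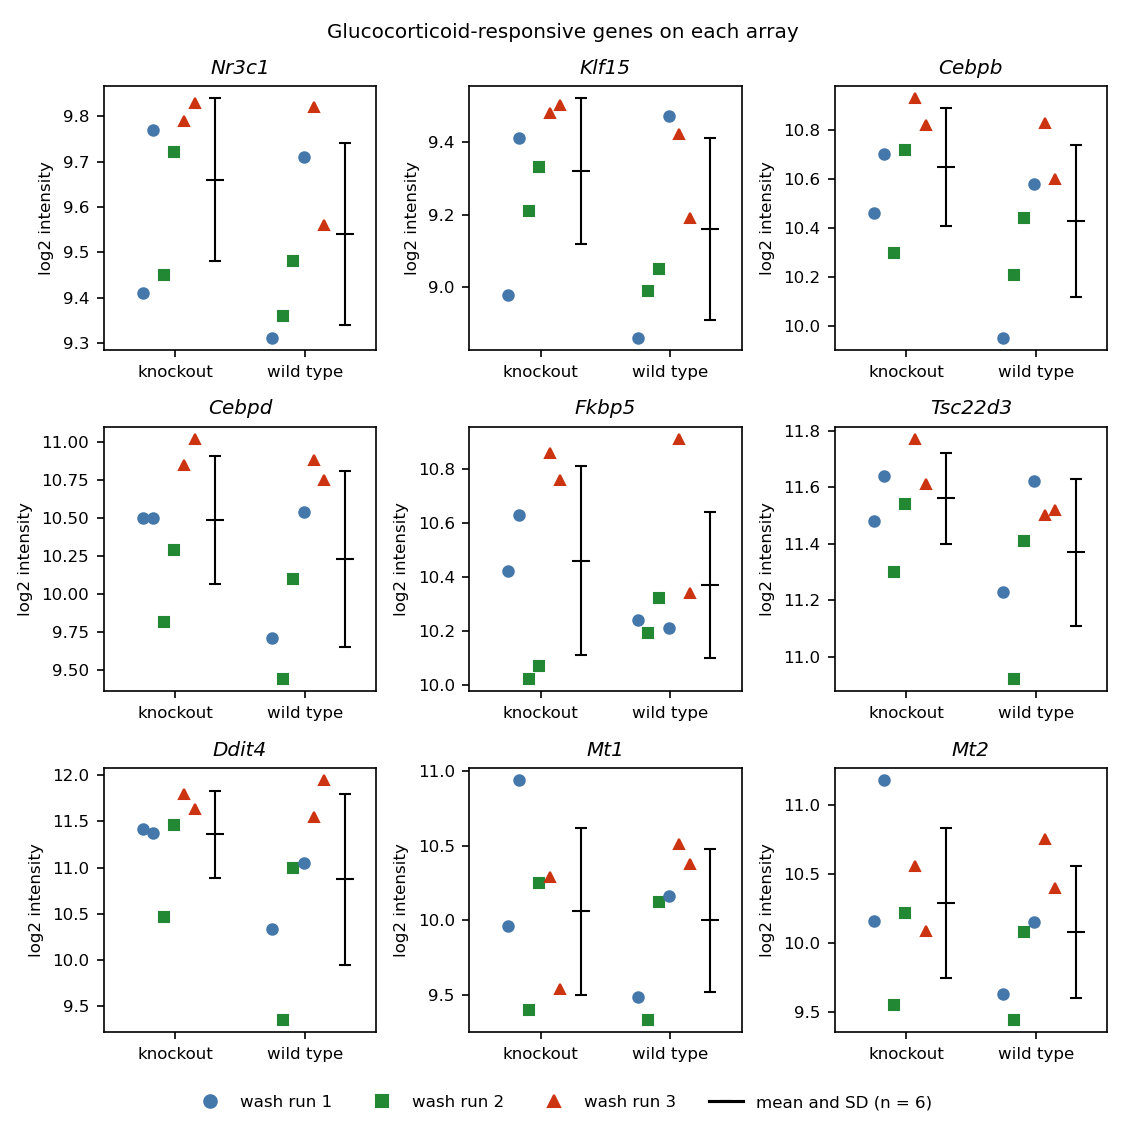
Log2 intensity of each of the 9 genes on every array, knockout at left and wild type at right in each panel, with colour and shape for the wash run and a bar for the mean and SD of 6 arrays. The genotypes overlap in every panel, and the run 3 arrays sit near the top for Cebpd and Ddit4.

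Within a wash run, 2 knockout arrays can be set against 2 wild type arrays handled together, without a test. For 5 of the 9 genes, each by its brightest probe set, the knockout mean was above the wild type mean in each of the 3 runs. These were Nr3c1, Klf15, Cebpb, Cebpd and Tsc22d3. The same held for 7 of the 17 probe sets and for 12.7% of all probe sets. It did not hold for 1421866_at of Nr3c1 (-0.24, 0.27 and -0.41 in runs 1, 2 and 3) or 1456605_at of Cebpd (-0.01, -0.09 and -0.03). Nor did it hold for 1425281_a_at and 1425557_x_at of Tsc22d3. The genes move together, so they are not separate observations. The count of 5 genes came to 3 without knockout replicate 2 and to 1 without wild type replicate 1. In runs 1, 2 and 3 the difference was 0.08, 0.17 and 0.12 for Nr3c1, 0.04, 0.25 and 0.19 for Klf15, 0.32, 0.19 and 0.16 for Cebpb, 0.38, 0.29 and 0.12 for Cebpd, and 0.14, 0.26 and 0.18 for Tsc22d3. The other 4 genes changed sign between runs. Ddit4 gave 0.70, 0.79 and -0.03, and Fkbp5 gave 0.30, -0.21 and 0.18. The metallothionein differences were above 0 in run 1 and below 0 in run 3, with 0.63, 0.10 and -0.53 for Mt1 and 0.78, 0.12 and -0.25 for Mt2. When the wash run was added as a block, the lowest adjusted p of the 17 probe sets was 0.770.

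**Figure D2:**
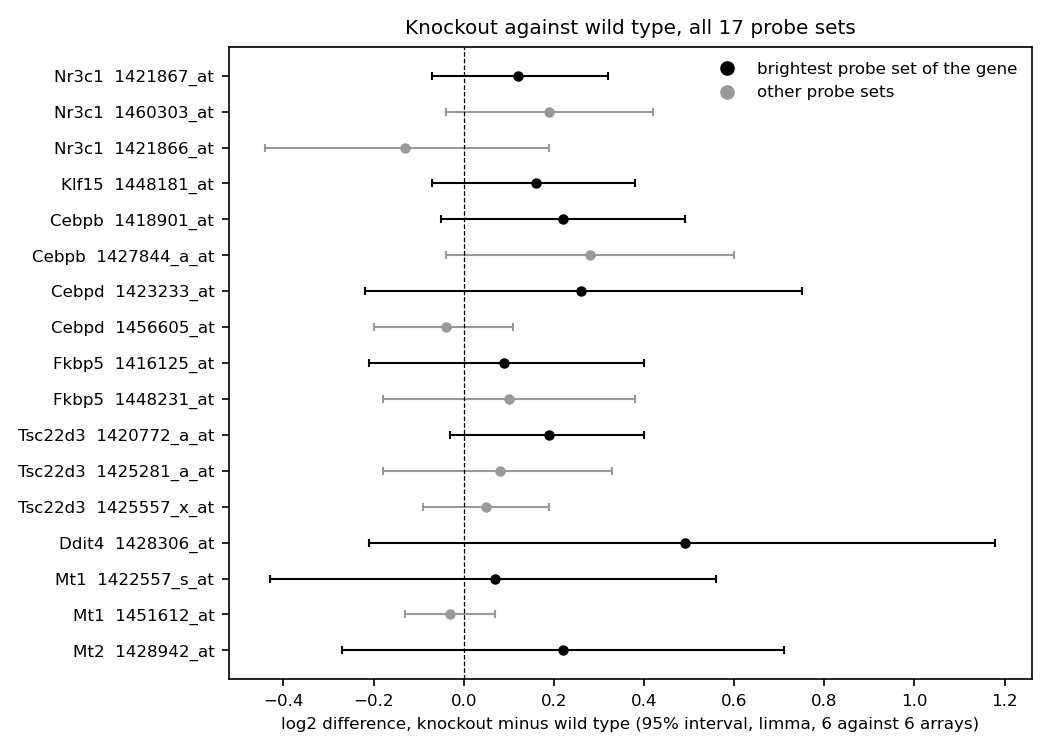
Difference in log2 intensity, knockout minus wild type, for all 17 probe sets, with 95% intervals from limma and black points for the brightest probe set of a gene. Every interval crosses 0, 14 of the 17 points lie above 0, and Ddit4 has the widest interval.

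The 9 genes varied far more from array to array than most transcripts measured. The SD over the 12 arrays, with both genotypes together, was 0.19 to 0.75 log2 units with a median of 0.3, where the median over all probe sets was 0.106. It lay above the 95th percentile of all probe sets for 8 of the 9 genes and for 13 of the 17 probe sets (5.0% of all by definition), and Nr3c1 fell just short at percentile 94.6. Ddit4 spanned 6.08-fold between its lowest and highest array, Mt2 3.35-fold, Mt1 3.07-fold and Cebpd 2.99-fold. Cebpb spanned 1.98-fold, Fkbp5 1.85-fold, Tsc22d3 1.80-fold, Klf15 1.56-fold and Nr3c1 1.43-fold. The standard errors of the genotype differences were correspondingly large, at 0.0927 to 0.328 for the 9 genes against a median of 0.0602 over all probe sets.

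The same few arrays were high or low for most of the genes. With 1 array per replicate, differences between mice and between arrays cannot be told apart. Wild type replicate 2 was among the 3 lowest arrays for 9 of 9 genes and the lowest of all for 5. Wild type replicate 1 was among the 3 lowest for 8 genes and knockout replicate 3 for 7. At the top, knockout replicate 5 was among the 3 highest for 8 genes, and knockout replicate 6 and wild type replicate 5 for 6 each. These top arrays were all in run 3. Of the low ones, wild type replicate 2 and knockout replicate 3 were in run 2 and wild type replicate 1 in run 1. Averaged over the 9 genes after each gene was centred on its mean, the knockout arrays ran from -0.38 (replicate 3) to 0.37 (replicate 5) and the wild type arrays from -0.64 (replicate 2) to 0.36 (replicate 5). Both genotypes thus had low and high arrays, with the 2 lowest in wild type.

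All 36 pairs of the 9 genes correlated positively over the 12 arrays, with Pearson r from 0.45 to 0.96 and a median of 0.74. A two-sided permutation test of 100000 resamples, adjusted by Benjamini-Hochberg over the 36 pairs, gave an adjusted p below 0.05 for 30 of them. The genes were chosen with earlier results of these arrays known, so this count is a description of the set. Of the 36 pairs, 55.6% had r above 0.7, against 1.57% of all pairs of probe sets and 6.08% of the pairs among the 1132 probe sets with an SD above the 95th percentile.

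Nr3c1 and Klf15, receptor and target, were the most tightly coupled pair (r = 0.96, permutation p = 1e-05, the smallest the resamples can give, and rho = 0.92, permutation p = 8e-05). Without the 2 arrays farthest from the Nr3c1 median r was 0.93. The adjacent metallothionein genes came next, with r = 0.94 and rho = 0.96 (permutation p = 1e-05 for each), and 0.89 without 2 arrays. The Mt1 probe set used has probes shared by more than 1 gene, and whether they also read Mt2 was not tested. Nr3c1 also followed Cebpb (r = 0.93 and rho = 0.94, permutation p = 1e-05 and 6e-05, 0.90 without 2 arrays). Cebpd followed Ddit4 (r = 0.92 and rho = 0.87, permutation p = 3e-05 and 0.00036, 0.85 without 2 arrays).
A different case was Tsc22d3 with Ddit4. Their r of 0.91 (permutation p = 0.00029) came with a rho of 0.69 (permutation p = 0.0173) and dropped to 0.67 without 2 arrays, where the adjusted p was 0.079. That relation therefore rests in part on the 2 extreme arrays. Cebpb and Cebpd had r = 0.87 and rho = 0.87.

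Cebpb, Nr3c1 and Mt2 passed with 8 of their 8 partners, and Cebpb had the highest median r, 0.81. Cebpd, Tsc22d3 and Ddit4 passed with 7 each, Klf15 with 6 and Mt1 with 5. Fkbp5 was the least coupled of the 9, passing with 4 of 8 partners at a median r of 0.61. The 6 pairs that did not pass were Fkbp5 with Klf15 (r = 0.53), Tsc22d3 (0.55), Ddit4 (0.57) and Mt1 (0.45), and Mt1 with Klf15 (0.49) and Cebpd (0.59).
Each run holds 4 arrays, too few for a correlation of its own, so the run means were subtracted from each gene instead. After that 14 of the 36 pairs passed, and the median r was 0.66. The pairs Nr3c1 with Klf15 (0.95), Mt1 with Mt2 (0.96), Nr3c1 with Cebpb (0.90), Cebpb with Cebpd (0.90), Tsc22d3 with Ddit4 (0.88) and Cebpd with Ddit4 (0.87) kept an r near that over all arrays and passed. The 3 pairs that moved most all held Fkbp5: its r with Ddit4 came to 0.06, with Cebpd to 0.26 and with Tsc22d3 to 0.21. Its r with Mt1 (0.34) and Mt2 (0.54) moved less, and no Fkbp5 pair passed. Without the 2 arrays farthest from the median of the first gene of a pair, 14 of 36 passed, and without run 3, on 8 arrays, 18 did.

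**Figure D3:**
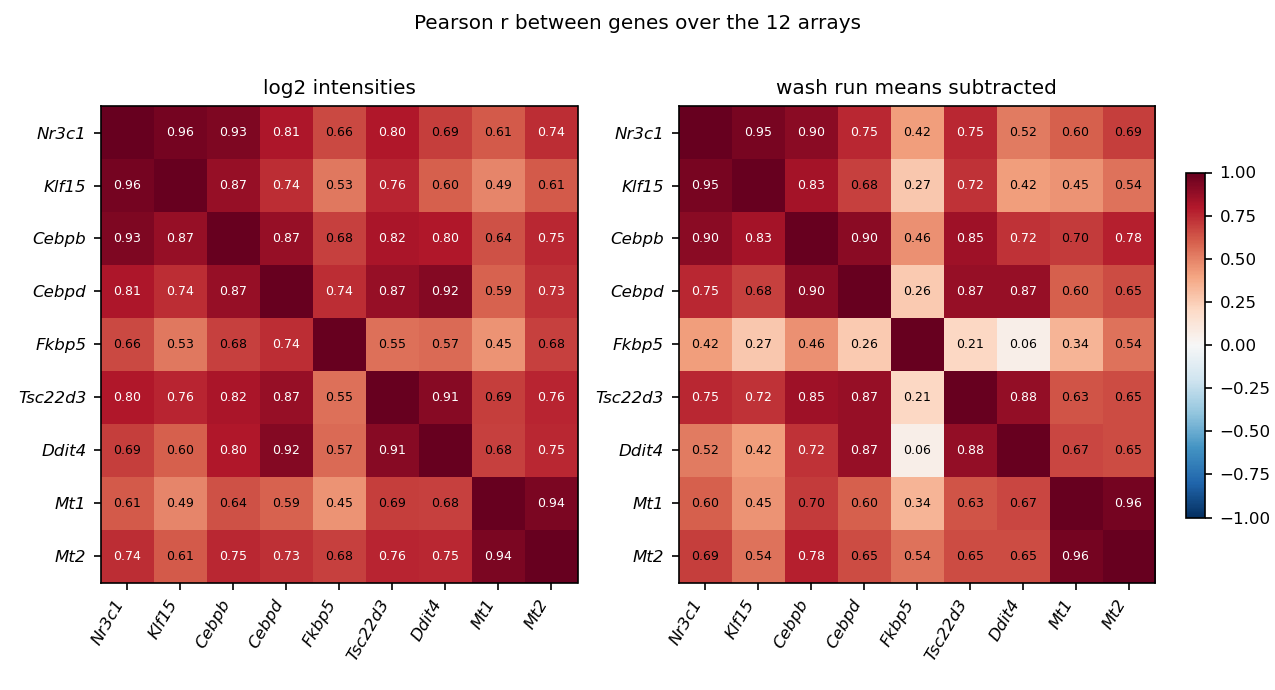
Pearson r over the 12 arrays between each pair of the 9 genes, for log2 intensities at left and after subtracting each wash run's mean at right, on a colour scale from -1 to 1. At left every pair is positive, from 0.45 to 0.96, and at right the Fkbp5 row and column pale, down to 0.06 with Ddit4.

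**Figure D4:**
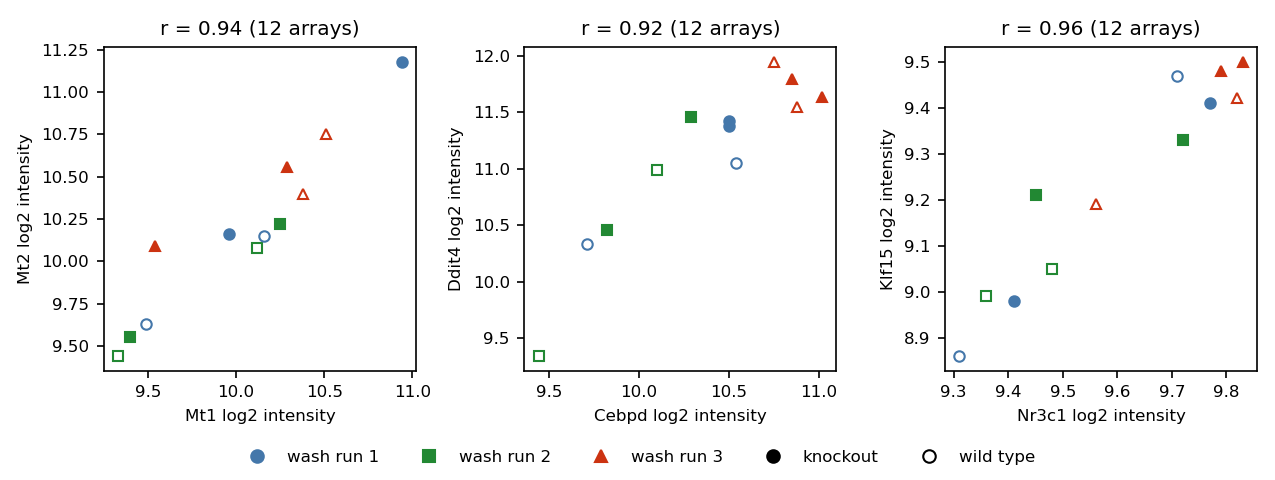
Log2 intensities of Mt1 and Mt2, Cebpd and Ddit4, and Nr3c1 and Klf15 on the 12 arrays, with filled symbols for knockout, open symbols for wild type, and colour and shape for the wash run. Each point is 1 array, and both genotypes lie along the same trend in each panel. Within run 3, Ddit4 did not rise with Cebpd. Wild type replicate 6 had Cebpd at 10.75 and Ddit4 at 11.95, and knockout replicate 6 had 11.02 and 11.64.

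Run 3 had the highest mean for 9 of 9 genes and for 16 of 17 probe sets, against 30.0% of all probe sets. In the F-test over the 3 runs, with genotype in the model, 0 of 17 probe sets passed, as did 0 of all 22626 (0.0%), and 9 of 17 had an unadjusted p below 0.05, against 6.31% of all. The lowest adjusted p was 0.251. The genes move together and some probe sets read the same gene, so these counts are not separate observations.
Cebpd had run means of 10.31, 9.91 and 10.87 in runs 1, 2 and 3 (limma adjusted p = 0.251). All 4 run 3 arrays, from 10.75 to 11.02, lay above all 8 others. The same held of Ddit4, with run means of 11.04, 10.56 and 11.73 (limma adjusted p = 0.575), while 0.393% of all probe sets had such a separation. For Cebpd it was seen in the brightest probe set only. The dim Cebpd probe set 1456605_at had run means of 7.82, 7.78 and 7.84 (limma adjusted p = 0.968).
Fkbp5 had run means of 10.37, 10.15 and 10.72 (limma adjusted p = 0.449), with wild type replicate 6 of run 3 down among the arrays of the other runs. Cebpb had 10.42, 10.42 and 10.80 (limma adjusted p = 0.655). Tsc22d3 had 11.49, 11.29 and 11.60 (limma adjusted p = 0.764). The receptor gene and Klf15 moved less between runs, with 9.55, 9.50 and 9.75 for Nr3c1 and 9.18, 9.14 and 9.40 for Klf15. The metallothioneins had means of 10.14, 9.78 and 10.18 for Mt1 and 10.28, 9.82 and 10.45 for Mt2, and their highest array, knockout replicate 2, was in run 1.
Set directly against the mean of runs 1 and 2, a contrast chosen after seeing the data, run 3 was higher by 0.93 ± 0.257 for Ddit4, 0.76 ± 0.14 for Cebpd, 0.45 ± 0.101 for Fkbp5 and 0.38 ± 0.107 for Cebpb (SE, limma adjusted p = 0.293, 0.132, 0.21 and 0.3). None passed. The cage letter of the records gave no call either, with a lowest adjusted p of 0.558 among the 17.

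**Figure D5:**
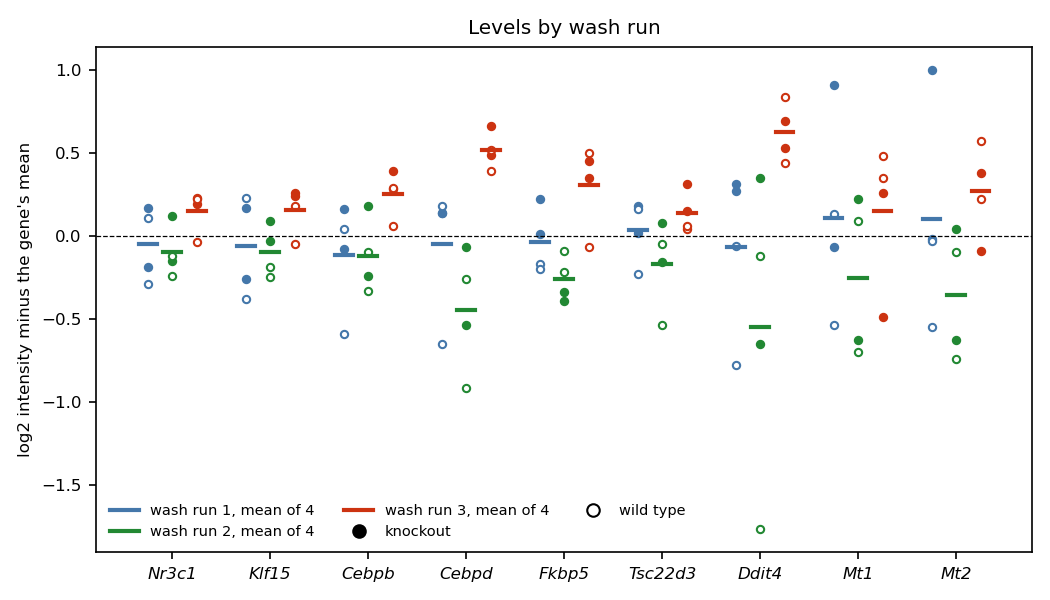
Log2 intensity of each gene on each array minus the gene's mean over the 12 arrays, by wash run, with filled points for knockout, open points for wild type and bars for the mean of 4 arrays. Each gene is given by its brightest probe set. The run 3 bar is the highest for all 9 genes, and for Cebpd and Ddit4 all 4 run 3 points lie above all others.

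Mean levels of marker lists for fibre and cell types and signs of RNA quality were set beside the 9 genes over the 12 arrays, as 90 relations with Benjamini-Hochberg adjustment over all of them. The mean level of the endothelial list moved against the genes, but its markers did so unevenly. All 7 markers were measured, 6 above the median level and none at 0. The median r to the 9 genes was -0.78 for Kdr, -0.64 for Cdh5 and -0.62 for Tek. It was -0.44 for Pecam1, -0.35 for Tie1, -0.25 for Emcn and -0.05 for Esam. Kdr, with the largest SD over the arrays (0.22), weighs most in the mean. Of the 7 markers, 1 was higher and 6 were lower in knockout, with a median log2 difference of -0.071, and none passed. Over all probe sets 47.1% were higher in knockout, and the 9 genes were all on average higher. Kdr differed by -0.22 ± 0.0937. The mean log2 level of the list was 7.63 to 7.83 in knockout and 7.74 to 7.94 in wild type. The r of this mean level with the 9 genes was -0.87 to -0.58. For 5 genes the adjusted permutation p was below 0.05: Cebpb (r = -0.87, rho = -0.82), Nr3c1 (r = -0.80, rho = -0.81), Klf15 (r = -0.80, rho = -0.80), Cebpd (r = -0.77, rho = -0.84) and Fkbp5 (r = -0.76, rho = -0.73). Adjusted permutation p-values of these r were 0.0144, 0.0276, 0.0276, 0.0486 and 0.0486, and r was -0.74, -0.77, -0.72, -0.76 and -0.80 without the 2 arrays farthest from the endothelial median. The mean level of the list was 7.80, 7.84 and 7.73 in runs 1, 2 and 3, lowest in run 3. These r were not computed with run means or genotype means subtracted. The part of the endothelial level in the spread of the genes was not tested.
No other list or measure passed. Not every gene in a list marks the named type alone, so the r are for the lists as chosen. The slow fibre list held Myh2 (mean 11.68) beside Myh7 (7.42). The adipocyte list held Car3 (13.14) and Fabp4 (10.87) beside Adipoq (8.86). Over all 12 arrays the r was 0.33 to 0.70 for fast fibre markers, 0.04 to 0.64 for slow fibre markers, 0.09 to 0.43 for adipocyte markers, -0.22 to 0.44 for macrophage and leukocyte markers, -0.41 to 0.23 for fibroblast markers, -0.55 to -0.11 for erythroid markers and -0.47 to -0.18 for immediate early genes. With the 3'/5' ratio of the control genes, a sign of RNA breakdown, it was -0.27 to 0.11, and with the array median -0.52 to -0.15. Several of these ranges depended on 2 arrays. Without the 2 arrays farthest from the median of each measure, r with the 3'/5' ratio was below 0 for all 9 genes, from -0.75 (Fkbp5) and -0.58 (Cebpd) to -0.19. For the erythroid list, of which 3 markers were measured and 1 was above the median level, it was then -0.71 to -0.63 for 6 genes and -0.31 to -0.17 for the other 3. For fast fibre markers it was 0.03 to 0.47, for slow fibre markers 0.05 to 0.51, for adipocyte markers 0.01 to 0.67, for macrophage and leukocyte markers -0.24 to 0.23, for fibroblast markers -0.60 to 0.01, for immediate early genes -0.30 to 0.14, and for the array median -0.26 to 0.27. The part of these measures in the spread of the genes was not tested.

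Around the 9 genes, 108 genes of the same pathways were listed in 8 groups and 94 of them were measured. None passed between genotypes, 60 were higher and 34 lower in knockout with a median difference of 0.021, and 8 had an unadjusted p below 0.05 in the limma fit. Of all probe sets, 47.1% were higher and 6.04% had such a p. None passed between wash runs, where 17 of the 94 had an unadjusted p below 0.05, against 6.31% of all probe sets.
Among receptor chaperones and enzymes of hormone supply, with 10 of 14 measured and 7 higher, H6pd had the smallest p. H6pd makes the NADPH that the glucocorticoid-reactivating enzyme in the endoplasmic reticulum uses. It averaged 9.12 ± 0.13 in knockout and 8.95 ± 0.04 in wild type (SD, n = 6 each, limma adjusted p = 0.772). Fkbp4, the counterpart of Fkbp5 that helps the receptor to the nucleus, differed by 0.11 ± 0.0537. The chaperone Hsp90aa1 had run means of 8.18, 8.01 and 8.35 and its partner Dnaja1 8.37, 8.22 and 8.47. Receptor coregulators, with 7 of 10 measured, had 6 higher, and Crebbp differed most by p (0.12 ± 0.0623), then Tsg101 (0.07 ± 0.0448), while Ncoa2 had run means of 6.92, 6.96 and 6.80.

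Of 20 other induced signalling and transcription targets, all were measured, 11 higher and 9 lower. Cdkn1c, a cell cycle inhibitor, averaged 9.12 ± 0.09 in knockout and 8.85 ± 0.22 in wild type (SD, n = 6 each, limma adjusted p = 0.715). Gadd45a, a stress gene, averaged 7.27 ± 0.19 in knockout and 7.54 ± 0.34 in wild type (limma adjusted p = 0.818). Run 3 was again the highest for Cdkn1a, with 9.32, 8.85 and 9.46, and for the stress protein gene Sesn1, with 8.86, 8.76 and 9.14, and 7 of the 20 had an unadjusted run p below 0.05 (6.31% of all probe sets). Of these 7, Gadd45b, named after its values were seen, was lowest in run 3, with 8.09, 8.51 and 7.94.
In the muscle catabolism list, 18 of 20 were measured, with 11 higher and 7 lower. Lpin1, a phosphatidate phosphatase and coactivator of fat oxidation, averaged 11.63 ± 0.11 in knockout and 11.88 ± 0.16 in wild type (SD, n = 6 each, limma adjusted p = 0.707). Bcat2, which starts the breakdown of branched-chain amino acids, differed by 0.14 ± 0.0488 (adjusted p = 0.781). Foxo1, the atrophy transcription factor, had run means of 8.68, 8.32 and 9.15 and the amino acid transporter gene Slc7a8 6.81, 6.64 and 7.15 (limma adjusted p = 0.336 and 0.251 over runs).
Among genes of zinc handling, 15 of 16 were measured, 8 higher and 7 lower. The zinc transporter gene Slc30a4 differed by 0.10 ± 0.0458 and Mtf1, the factor that reads the metal response element, by -0.06 ± 0.0486. Run means were 7.57, 7.51 and 7.87 for Slc30a2 and 8.25, 8.11 and 8.27 for the zinc importer gene Slc39a14.
The C/EBP family and partners (9 of 11 measured, 5 higher) gave Cebpa at 0.11 ± 0.0632 and Ddit3 at 0.09 ± 0.0525, and Atf3 run means of 7.37, 7.21 and 7.23. The TSC22 and DDIT4 families (7 of 8 measured) had higher means in knockout for 7 of 7, against 47.1% of all probe sets, but none passed and 1 had an unadjusted p below 0.05. That gene was the Ddit4 paralogue Ddit4l, at 11.05 ± 0.20 in knockout and 10.76 ± 0.13 in wild type (SD, n = 6 each, limma adjusted p = 0.656). Its run means of 10.90, 10.89 and 10.93 spanned less than its genotype difference. Tsc1, which restrains mTORC1, differed by 0.11 ± 0.0538, and Rheb, which activates it, had run means of 10.70, 10.56 and 10.77. Among other KLF genes (8 of 9 measured, 5 higher), Klf10 differed by -0.22 ± 0.0908 (limma adjusted p = 0.802). Klf13 differed by 0.05 ± 0.0697, and Klf6 had run means of 7.98, 7.86 and 8.21.

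Of the 94 pathway genes, 8 (8.51%) had a median r above 0.7 to the 9 genes, where 65 of the 12384 genes other than the 9 (0.525%) did. They were Foxo1 (0.82), Glul, the glutamine synthetase gene (0.77), the amino acid transporter genes Slc38a2 (0.75) and Slc7a8 (0.72), Slc39a14 (0.75), Rhob (0.71), Cdkn1c (0.70) and Sesn1 (0.70). By list, 3 of the 20 induced targets and 4 of the 18 catabolism genes measured were above 0.7, so most targets in these lists were not. Per1 (0.69) and Foxo3 (0.64) came close. Fbxo32 (0.28) and Pdk4 (0.06) followed weakly or not at all. The median r was below 0 for Dusp1 (-0.22), Per2 (-0.33), Klf2 (-0.44) and Gadd45b (-0.48). Mtf1 had a median r of -0.34 and Ddit4l of 0.07. The 9 genes and the lists were chosen with earlier results of these arrays known, so the shares above 0.7 are a description. The 12384 genes also include dim ones, while in each list most measured genes were above the median level.
Among all named genes above the median level, those most like each of the 9 by r over the 12 arrays were named as the top 3. Nr3c1 and Klf15 shared the non-coding snoRNA host gene Snhg1 (r = 0.93 and 0.95) and Rabgef1 (0.89 and 0.87), with Prr14 (0.90) beside Nr3c1 and U2surp (0.89) beside Klf15. Cebpd, Tsc22d3 and Ddit4 shared Noct, the rhythmic gene of nocturnin (0.90, 0.92 and 0.91). Tsc22d3 and Ddit4 also shared Ppp1r3c, which targets a phosphatase to glycogen (0.91 and 0.90). Next to them stood Nfe2l2 (0.91) and the ferritin heavy chain gene Fth1 (0.90) for Cebpd, Klf13 at a dimmer probe set (0.92) for Tsc22d3 and Tob2 (0.92) for Ddit4. Cebpb was closest to Ubap1 (0.92), Tgm2 (0.91) and Hipk1 (0.91), and Fkbp5 to Mknk2 (0.89), Foxo3 (0.88) and Uqcc2 (0.88). Mt1 and Mt2 shared Sox4 (0.90 and 0.93). Beside it stood Nmb (0.91) and Nfkbia, the gene of an inhibitor of NF-kappaB, at a dimmer probe set (0.91) for Mt1. For Mt2 they were Tns2 (0.93) and Tgm2 (0.94), the latter at a dimmer probe set than the Tgm2 one named for Cebpb.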

How the data were processed

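The authors deposited RMA intensities for 12 arrays, per the submitters' processing notes. No RMA version is given in the sources used here. RMA subtracts background, gives all arrays nearly the same distribution and summarises each probe set, which hides shifts common to most transcripts. The deposited intensities, from 7.47 to 21828, are linear, and log2 was taken of them. Leaving out 64 array controls of 22690 probe sets gave 22626 to test, of which 20380 name 1 gene in the platform annotation.

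Groups came from the sample titles. Wash run, cage letter, fluidics module and chip lot came from the array records that the authors deposited, where arrays hybridised within 60 minutes were taken as 1 run. The genotype in the records matched the label for 12 of 12 arrays. The design text calls the 6 arrays of a genotype biological replicates, and the number of arrays limits the precision.

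Genotype and wash run were tested with limma 3.58.1 under R 4.3.3, by two-sided moderated tests (lmFit, eBayes) with Benjamini-Hochberg adjustment over all 22626 probe sets and a threshold of 0.05. Both fits were first tested on simulated data. Correlations used 100000 permutations. The 9 genes, the pathway and marker lists and the naming rule (from each pathway list the 2 genes of smallest p for genotype and for run, and the 3 genes most like each of the 9) were chosen with earlier results of these data known. Genes outside that rule are named where their median r to the 9 passed 0.7, after their values were seen. Some targets below 0.7 are named beside them, also after their values were seen. Sequences are from RefSeq (GRCm38.p6). The alternatives tried were other scalings, priors, array weights, filters, blocks, a pseudocount of 32, averaging all probe sets of a gene, and omitting arrays.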

Additional observations from a re-analysis of the deposited data

Results flagged for a closer look

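In 4 of the 34 groups of 6 arrays, 1 per probe set and genotype, the highest or lowest array stood apart: its gap to the nearest other array, as a share of the group's range, was above Dixon's 95% critical value for 6 arrays. Chance alone flags about 1 in 20 groups, and probe sets of 1 gene are not separate groups. Wild type replicate 5 was high for both Fkbp5 probe sets, at 10.91 log2 units for 1416125_at, where the other 5 wild type arrays lay between 10.19 and 10.34, and at 9.49 for 1448231_at, where they lay between 8.85 and 8.94. The gap took up 0.781 and 0.856 of the range. Knockout replicate 3 was low for Ddit4, at 10.46, with the other 5 knockout arrays between 11.38 and 11.80 (gap 0.683 of the range). Knockout replicate 1 was low for the dim Mt1 probe set 1451612_at, at 6.46, with the others between 6.58 and 6.62 (gap 0.749 of the range).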

How the results depend on the processing

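Under 24 alternatives the count of the 17 probe sets that passed between genotypes was 0 each time, and under 19 alternatives the count that passed between wash runs was 0. With the replicate number of the titles as a block, 0 of the 17 and 2 of all probe sets passed, where 3 of all passed without it. The numbers do not pair the samples: same-numbered arrays had deviations that correlated at -0.15 to 0.203, and 1 of the 12 arrays correlated best with its own number. Over all probe sets the genotype count was 7 with log2 of the intensity plus 32, 0 without wash run 3 and 2 to 3 when single arrays were left out. The count between wash runs was 9 of all probe sets with the cage letter in the model. Of the 36 gene pairs, 30 passed; this became 14 without the 2 farthest arrays, 14 with wash run means subtracted, 18 without run 3 and 22 to 31 when single arrays were left out (22 without wild type replicate 2). It became 0 with genotype and run effects both subtracted, where the design allows no p below 0.016, 9 pairs had an unadjusted p below 0.05 and the median r was 0.63. By the brightest probe sets, the count of genes higher in knockout in all 3 runs was 5, and 1 to 6 when single arrays were left out. The Mt1 difference of 0.07 changed sign to -0.02 with array weights and ran from -0.11 to 0.20 without single arrays. The other 8 genes stayed above 0 in all 24 alternatives, but the size of each depended on single arrays or on which probe sets were used. Leaving out run 3, the cage letter, the fluidics module and subtracting both effects were chosen after seeing the data. So were single arrays left out of the pair and within-run counts, and centring each array on its median for the within-run count. The cause of these shifts was not tested. The upper ends of the 9 genes' intervals ran from 0.32 for Nr3c1 to 1.18 for Ddit4.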
